A study of Mus musculus with 74 samples.

Results

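Late Th1/2 hybrid cells were compared with Th2 cells in a time course of mouse CD4+ T-cell differentiation measured on Illumina Mouse Sentrix-6 expression arrays. Naive CD4+ CD62Lhi cells from pooled spleen and lymph nodes of Balb/c mice aged 5 to 8 weeks were activated with antibodies to CD3 and CD28. Th2 cultures received IL-4 and blocking antibodies against IL-12 and IFN-γ, whereas Th1/2 cultures, labelled ThMix, received IL-12 and IL-4 without any blocking antibody. The arrays compared here were all those of both cell types at 48, 73, 96 and 120 h, 8 a side and 16 of the 74 arrays of the series, matched into 8 pairs by time point and experiment number. Both groups received IL-4, so the comparison asks what IL-12 and free IFN-γ added to cells that respond to IL-4; added IL-12, unblocked IL-12 and unblocked IFN-γ cannot be told apart. Both remaining groups served as a reference without added IL-4, namely Th1 cells (IL-12 with anti-IL-4) and Th0 cells (antibodies against IFN-γ, IL-4 and IL-12). Each condition was measured in 2 independent experiments, which were the replicates at each time point. The values are those of whole cultures, so a change in the share of expressing cells and a change of the RNA per cell cannot be told apart.

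IL-12 signals through its receptor to the transcription factor STAT4, which induces the gene of T-bet (Tbx21) and of IFN-γ. IFN-γ acts on the same cells through its own receptor and induces the transcription factor IRF1, which binds ISRE sites of guanylate-binding proteins, antigen presentation genes and others. IL-4 signals through STAT6 and induces GATA-3, and T-bet and GATA-3 are known to restrain each other's programmes.

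The labels were first set against defining genes of the cell types. Of 7 measured T-cell markers, all were above the level that served as the expression filter in both groups, and none was called different (2 at an unadjusted p under 0.05 in limma). With the experiment number at each time point as a block, both were called lower in Th1/2 cells, namely Cd4 (-0.32, adjusted p = 0.266; 0.0167 with the block) and Thy1 (-0.44, adjusted p = 0.0518; 6.9e-05 with the block), and Cd4 was also called when the Th2 side of experiment 2 was left out (-0.54, adjusted p = 0.0441). Cd4 was lower in all 8 pairs. Cd3e, a chain of the T-cell receptor complex, lay at log2 intensities of 13.30 to 14.09 in Th1/2 and 13.23 to 13.98 in Th2 cells. Cd8b1, which defines CD8 T cells, was also bright, at 11.65 to 12.38 in Th1/2 and 11.69 to 12.46 in Th2 cells, and differed by 0.04 ± 0.12 (adjusted p = 0.961). Its other probes averaged 10.56 and 7.64 over all arrays (differences of -0.24 and -0.11), and what these probes bind could not be checked here. Summed linear intensities of 4 B-cell markers (555 to 800 in Th1/2, 486 to 977 in Th2), and of 2 NK-cell markers (211 to 259 and 216 to 258) overlapped between the groups. Of 6 measured myeloid markers, whose sums ran from 552 to 1730 in Th1/2 and from 561 to 2400 in Th2 cells, Adgre1 was called lower in Th1/2 cells. The part of other cell types in the results below was not tested. The 2 arrays of a condition differed with an SD over genes of 0.203 to 0.434 (median 0.273, log2), widest between the Th0 arrays at 96 h and next between the Th1/2 arrays at 12 h (0.384).

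Late Th1/2 cells had more Tbx21 and Il12rb2 RNA and more RNA of several guanylate-binding proteins than Th2 cells, while Gata3, Il4, Il5 and Il13 were not called different (Gata3 and Il5 were with the block). Of 13817 genes tested, the Th1/2 level over the late window was higher for 248 (1.79% of all genes) and lower for 322 (2.33%) at an adjusted p below 0.05, in a limma fit over all 74 arrays. Most of these differences were small. The median size among called genes was 0.431 on the log2 scale, 403 of the 570 (70.7%) differed by less than 1.5-fold, and 33 genes were at least 2-fold higher (0.239%) and 22 at least 2-fold lower (0.159%). Of these large differences, 32 of the 33 and 19 of the 22 had the same sign in all 8 pairs. The genes were picked by the mean of the same pairs, so this count is not independent support. Over all genes, 436 (3.16%) were higher and 523 (3.79%) lower in all 8 pairs. The pairs share 2 experiments and are not 8 independent cultures. With the experiment number at each time point as a block, 1402 of the 13817 genes were called (650 higher and 752 lower), among them all 570. List counts given with the block are to be read against these larger numbers. Without the 4 late Th1/2 arrays of experiment 2, 379 were called.

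**Figure D1:**
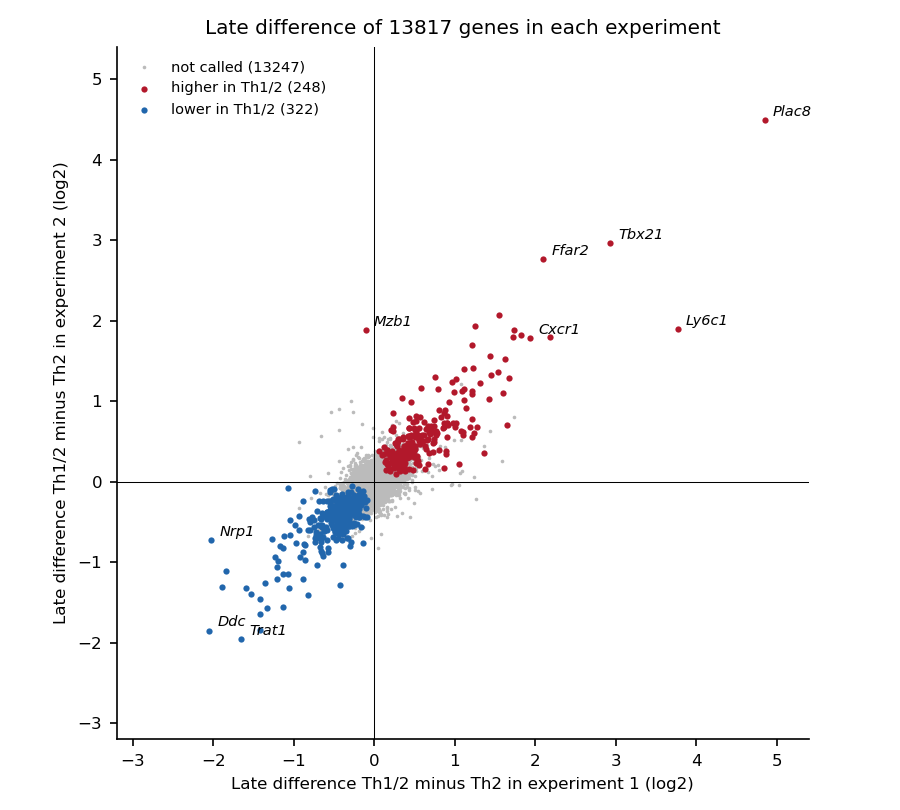
Mean late difference Th1/2 minus Th2 (log2 intensity, mean over 48, 73, 96 and 120 h) of each of 13817 genes in experiment 1 (horizontal axis) and experiment 2 (vertical axis). Red points are the 248 genes called higher and blue points the 322 called lower; nearly all called genes lie in the quadrants where both experiments have the same sign, with Plac8 and Tbx21 farthest up the diagonal, whereas Mzb1 was higher in experiment 2 alone. Calls rest on the mean of both experiments, so shared signs among called genes are partly set by the selection.

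The Th1 transcription factor Tbx21 stood among the genes with the largest differences. Tbx21, which encodes T-bet, lay at log2 intensities from 9.33 to 10.61 (median 10.03) on the 8 Th1/2 arrays and from 6.51 to 8.40 (median 6.91) on the Th2 arrays. The groups did not overlap, and the difference of 2.94 ± 0.19 (SE, 7.70-fold, adjusted p = 2.1e-15) put Th1/2 cells near the Th1 arrays, which ran from 9.38 to 11.07. Of 10 measured Th1 transcription factors, 3 were called higher and none lower. Besides Tbx21 these were Hlx, a homeobox partner of T-bet, at 0.35 ± 0.08 (adjusted p = 0.00248; with the Th2 side of experiment 2 left out, 0.29 and 0.0912), and Irf1 (0.86 ± 0.23, adjusted p = 0.0213). Irf1 was higher in all 8 pairs, but its call was lost without the Th1/2 arrays of experiment 2 (0.55, adjusted p = 0.394) or the Th2 arrays of experiment 1 (0.54, adjusted p = 0.42). Hopx, a regulator that Th1 cells induce, lay at 6.87 to 7.54 in Th1/2 and 6.67 to 7.28 in Th2 cells against 7.15 to 9.50 in Th1 cells (0.18 ± 0.09, adjusted p = 0.385; 0.0424 with the block, and 0.34 with 0.0468 when the Th2 side of experiment 2 was left out).

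Among the 8 measured Th1 receptors, 3 were called higher and none lower. Il12rb2, the signalling chain of the IL-12 receptor, lay between 8.27 and 9.28 (median 8.56) in Th1/2 and between 6.53 and 7.35 (median 6.94) in Th2 cells, without overlap. Its difference was 1.76 ± 0.12 (3.39-fold, adjusted p = 2.19e-14), while the Th1 arrays ran higher, from 9.44 to 10.93. Il12rb1, the other chain, lay at 9.16 to 10.01 against 8.57 to 9.88 and was not called (0.43 ± 0.16, adjusted p = 0.179). Cxcr3, the chemokine receptor of Th1 cells, ranged from 6.92 to 9.52 (median 8.80) against 6.44 to 7.17 (median 6.56) and differed by 1.82 ± 0.12 (adjusted p = 1.76e-15). The ranges overlapped only through the arrays at 48 h. Il18r1, a chain of the IL-18 receptor, was 0.61 ± 0.15 higher (adjusted p = 0.00624), yet its Th1/2 arrays, at 6.78 to 8.46, lay below every Th1 array (8.90 to 12.69). The other probes of Il18r1 moved less: averaged over its probes the difference was 0.21 (adjusted p = 0.174). The call was also lost without the Th1/2 or the Th2 arrays of experiment 2 (adjusted p = 0.12 and 0.149). With the block Ifngr1, the IFN-γ receptor chain, was called as well (0.24, adjusted p = 0.0229).

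Th1 effector genes were divided. Of 14 measured, Ly6c1, Ctsw and Nkg7 were called higher and none lower, and with the block also Ifng, Lta and Ccl5. Ly6c1, a surface antigen of lymphocytes and monocytes, lay at 7.38 to 12.22 (median 11.39) in Th1/2 and 6.75 to 9.94 (median 7.31) in Th2 cells, a difference of 2.83 ± 0.46 (7.12-fold, adjusted p = 3e-05). Ctsw, the protease cathepsin W of cytotoxic lymphocytes, was 1.58 ± 0.13 higher (2.99-fold, adjusted p = 4.14e-12) and higher in all 8 pairs. Nkg7, a granule protein, was 0.58 ± 0.13 higher (adjusted p = 0.00312), a call lost without the Th1/2 arrays of experiment 2 (0.36, adjusted p = 0.3) or the Th2 arrays of experiment 1 (0.45, adjusted p = 0.186).

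Ifng itself was higher in all 8 pairs but missed the threshold. Its late level ran from 6.49 to 10.90 (median 7.32) in Th1/2, from 6.04 to 8.87 (median 6.58) in Th2 and from 8.75 to 14.54 (median 11.55) in Th1 cells. The late difference was 1.14 ± 0.37 (adjusted p = 0.0712), and it was called with the experiment as a block (adjusted p = 4.11e-06) and without the Th1/2 arrays of experiment 1 (1.59, adjusted p = 0.0384) or the Th2 arrays of experiment 2 (1.52, adjusted p = 0.0432). It was widest at 48 h, where the difference was 2.45, against 0.85, 0.40 and 0.88 at the later times. At 24 and 35 h, on arrays the late window does not use, Ifng was 2.41 higher in Th1/2 cells (adjusted p = 0.0112).

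The gene with the largest difference was Plac8, which encodes a small cysteine-rich protein of leukocytes. Plac8 lay between 9.46 and 13.34 (median 12.86) in Th1/2 and between 7.01 and 7.75 (median 7.60) in Th2 cells. No Th2 array reached the lowest Th1/2 array, and the difference of 4.67 ± 0.32 was 25.5-fold (adjusted p = 2.19e-14). Ffar2, a receptor for short-chain fatty acids, ranged from 7.36 to 10.62 (median 9.47) in Th1/2 cells while all Th2 arrays stayed between 6.61 and 6.85. Its difference was 2.43 ± 0.14 (adjusted p = 2.21e-16). The Th2 mean of Ffar2 lay below the filter of 6.77, as did those of Cxcr3, Cxcr2, Hlx, Ido1, Klrd1 and Maf, so these genes passed the filter through other groups, and no exact fold is given for them. Cxcr1, a chemokine receptor best known from neutrophils, was 1.86 ± 0.09 higher (3.63-fold, adjusted p = 1.61e-18), and its relative Cxcr2 0.42 ± 0.06 (adjusted p = 1.11e-06).

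The rest of the 15 largest increases that recurred in all pairs held kinases, a protease and a junction protein. Nuak2, a kinase related to AMPK, lay at 8.21 to 10.51 in Th1/2 and 6.81 to 8.05 in Th2 cells (1.81 ± 0.20, adjusted p = 4.33e-09). Fes, a tyrosine kinase, was 1.59 ± 0.16 higher, and Gja1, a gap junction connexin, 1.48 ± 0.24 higher (adjusted p = 3e-05). Furin, a protease that activates proproteins, ranged from 11.99 to 14.16 against 10.91 to 13.28 (1.45 ± 0.16, adjusted p = 4.33e-09), with its 3 probes at 1.45, 1.18 and -0.12. Gm4951 was 1.99 ± 0.23 higher by its brightest probe (adjusted p = 1.16e-08) and 0.09 by its other probe. The remaining members of these 15 were Tbx21, Ly6c1, Il12rb2, Ctsw and 3 guanylate-binding protein genes.

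Guanylate-binding proteins (GBPs) and immunity-related GTPases (IRGs), which attack intracellular pathogens and are classical targets of IFN-γ, were higher in late Th1/2 cells for 9 of 14 measured genes. The 250 bases before the start site of some of these genes, and of Irf1, are shown with their matches to motifs known from interferon responses. Whether these matches bear on the differences was not tested, and Ifi47, which was called higher, had neither motif. The sequences are from RefSeq (build GRCm38.p6, all on the plus strand, 5′ to 3′, the first listed start site where there were several), with capitals marking every match on either strand to ISRE, the interferon-stimulated response element (GAAANNGAAA), or GAS, the gamma-activated site (TTCNNNGAA). They lie at chr3:142620413-142620662 (Gbp2), chr3:142559794-142560043 (Gbp3), chr3:142530086-142530335 (Gbp7), chr11:58214727-58214976 (Irgm2) and chr11:53769764-53770013 (Irf1).
Gbp2: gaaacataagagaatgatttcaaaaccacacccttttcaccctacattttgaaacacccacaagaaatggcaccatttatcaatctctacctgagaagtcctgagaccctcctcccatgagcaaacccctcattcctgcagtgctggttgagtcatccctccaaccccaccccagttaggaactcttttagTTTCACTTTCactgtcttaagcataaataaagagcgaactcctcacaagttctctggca
Gbp3: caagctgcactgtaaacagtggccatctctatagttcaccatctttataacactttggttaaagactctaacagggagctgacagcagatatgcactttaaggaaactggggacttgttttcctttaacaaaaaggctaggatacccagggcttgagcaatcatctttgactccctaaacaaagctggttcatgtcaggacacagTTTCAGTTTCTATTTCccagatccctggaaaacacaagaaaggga
Gbp7: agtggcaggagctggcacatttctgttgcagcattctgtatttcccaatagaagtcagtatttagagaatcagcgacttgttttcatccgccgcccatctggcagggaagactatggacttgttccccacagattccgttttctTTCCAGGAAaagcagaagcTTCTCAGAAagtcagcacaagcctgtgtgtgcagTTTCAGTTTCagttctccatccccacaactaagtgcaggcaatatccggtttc
Irgm2: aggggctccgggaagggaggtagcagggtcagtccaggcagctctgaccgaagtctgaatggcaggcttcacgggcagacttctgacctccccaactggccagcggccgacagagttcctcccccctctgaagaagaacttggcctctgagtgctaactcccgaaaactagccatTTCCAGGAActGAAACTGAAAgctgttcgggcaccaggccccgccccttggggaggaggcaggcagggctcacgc
Irf1: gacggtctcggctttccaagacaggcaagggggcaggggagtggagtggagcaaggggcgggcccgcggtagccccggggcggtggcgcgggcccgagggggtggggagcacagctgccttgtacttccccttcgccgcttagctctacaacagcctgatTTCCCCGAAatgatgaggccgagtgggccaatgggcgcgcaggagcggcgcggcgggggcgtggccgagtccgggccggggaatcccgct

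Counted from the start site to the first base of the match, Gbp2 had an ISRE match at -59, Gbp3 had overlapping ones at -45 and -39, Gbp7 had GAS matches at -106 and -87 and an ISRE match at -53, and Irgm2 had GAS at -75 and ISRE at -64. Irf1 had a single match, to GAS at -90. Of the 14 measured genes of the GBP and IRG list, 10 had a RefSeq promoter, and of these 9 held an ISRE match (90.0%) and 6 a GAS match (60.0%). Over all 11117 tested genes with a promoter of this length, 2.83% held ISRE and 6.34% held GAS. Among late genes higher in Th1/2 cells the shares were 8.59% (17 of 198) and 12.6% (25 of 198), and among late genes lower they were 2.32% (6 of 259) and 4.25% (11 of 259). Of the at least 2-fold higher genes with a promoter, 6 of 24 held each motif (25.0%). Those with ISRE included Gbp2, Gbp2b, Gbp3, Gbp5 and Gbp7, and those with GAS included Gbp5 and Gbp7. The ISRE share among higher genes therefore in large part repeats that of the GBP family. A match of letters is a description and not evidence of binding.

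All 14 measured genes of the GBP and IRG list had a late difference above 0, with a median of 0.73 against -0.0032 over all genes tested, and 9 were called higher and none lower, where 1.79% of all genes were called higher. Gbp2 lay at 11.83 to 12.38 (median 12.14) in Th1/2 and 9.85 to 11.09 (median 10.72) in Th2 cells, a difference of 1.495 ± 0.15 (2.82-fold, adjusted p = 3.59e-10). Gbp3, at 10.10 to 11.50 against 9.15 to 10.01, differed by 1.45 ± 0.14 (adjusted p = 5.53e-10), and Gbp7, at 8.67 to 10.03 against 7.85 to 8.44, by 1.39 ± 0.16 (adjusted p = 3.41e-08). None of these ranges overlapped. Gbp5 (1.27 ± 0.17) and Gbp10 (1.03 ± 0.22, adjusted p = 0.00209; 0.90 and 0.0776 without the Th1/2 arrays of experiment 1) were also separate. Gbp2b, a family member outside the list, lay at 12.81 to 13.43 against 10.71 to 11.95 (1.81 ± 0.16, 3.51-fold).

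Among the IRG members, Igtp was 0.88 ± 0.11 higher (adjusted p = 3.14e-07), Irgm2 0.76 ± 0.15 (10.996 to 11.88 against 10.07 to 10.99, without overlap), Ifi47 0.69 ± 0.14 and Tgtp1 0.53 ± 0.14 (adjusted p = 0.0214). Tgtp1 lost its call without the Th1/2 arrays of experiment 2 (0.31, adjusted p = 0.488) or the Th2 arrays of experiment 1 (0.33, adjusted p = 0.5), and Ifi47 without those of experiment 1 (0.60, adjusted p = 0.0522). Irgm1, at 0.27 ± 0.09 by its brightest probe, was not called (adjusted p = 0.0892; 0.00676 with the block). Its probes, at mean levels of 14.43, 10.61 and 7.70, gave 0.27, 1.43 and 0.47, and their mean was called higher (0.72, adjusted p = 0.000232). Gbp11, at 0.38 ± 0.23 (adjusted p = 0.537), was called with the block (0.000956) and without the Th1/2 arrays of experiment 2 (0.88, adjusted p = 0.039). The probes of Gbp9 and Iigp1 stayed near the dim end on all arrays, at 6.61 to 6.99 and 6.65 to 7.01. GBP and IRG genes are near-identical families on which probes can share signal, and the probes of Gbp2 differed among themselves at 1.495, 0.86 and 0.11. With each group's experiments left out in turn, 7 to 9 members were called.

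**Figure D2:**
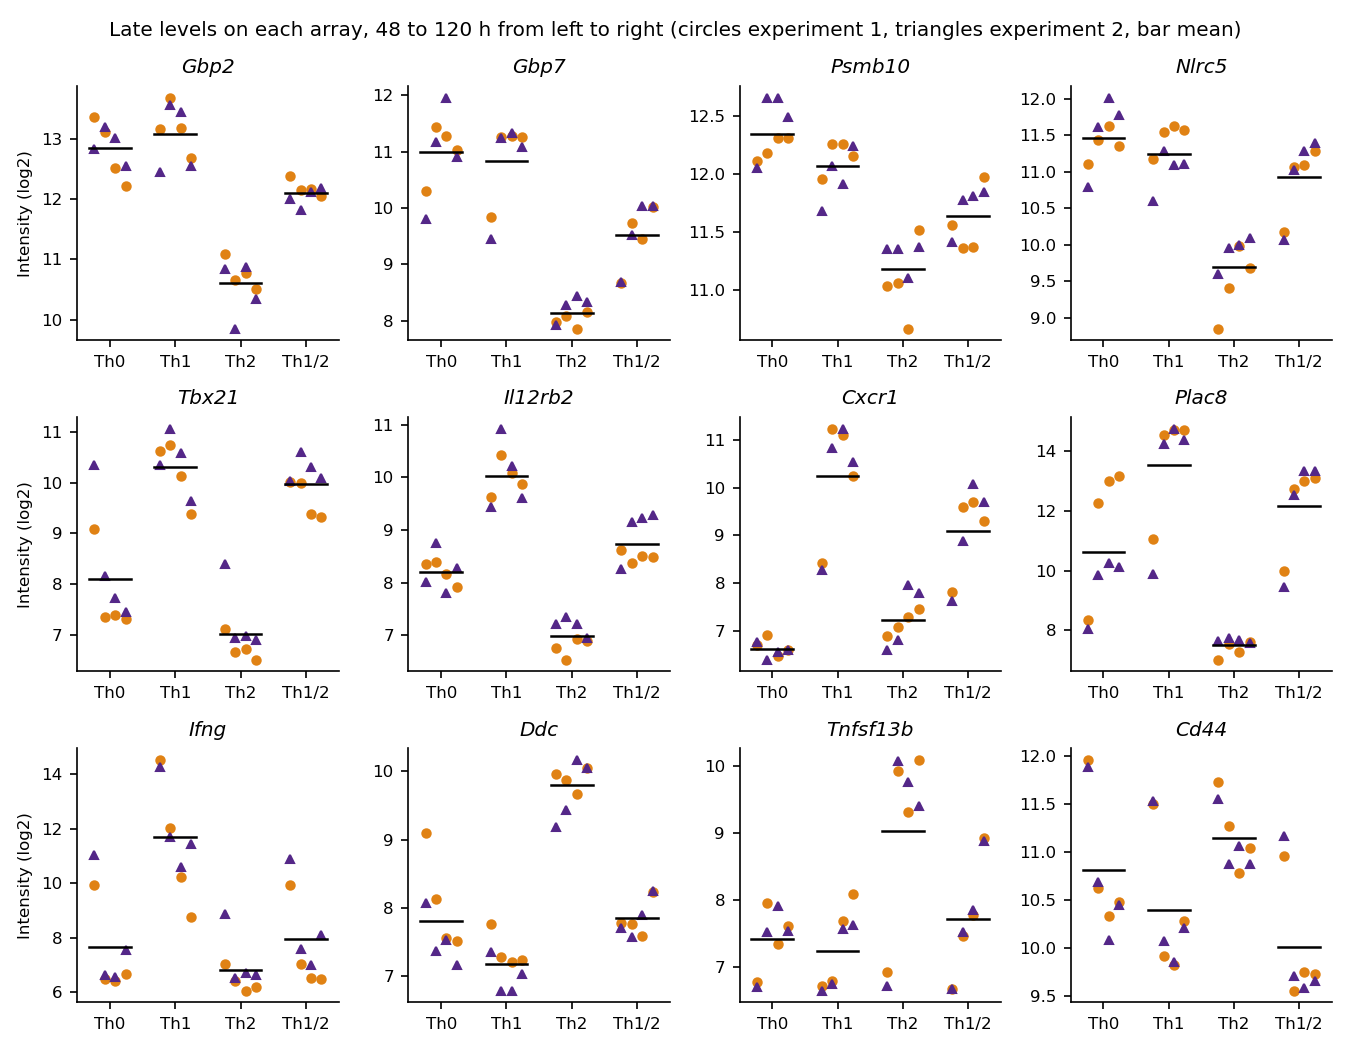
Log2 intensity of 12 genes on every late array of Th0, Th1, Th2 and Th1/2 cells; within each cell type the points run from 48 h to 120 h, circles are experiment 1, triangles experiment 2 and bars the mean of 8 arrays. Gbp2 and Gbp7 were lowest in Th2 cells and intermediate in Th1/2 cells, Tbx21 and Plac8 were as high in Th1/2 as in the lower Th1 arrays, and Ddc, Tnfsf13b and Cd44 were highest in Th2 cells.

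IFN-γ signalling genes moved in part. Of 19 measured, 5 were called higher (Nlrc5, Irf8, Socs3, Irf1 and Ido1) and Jak2 lower, and with the block Parp14 and Cd274 were also higher. Nlrc5, the transactivator of MHC class I genes, ranged from 10.06 to 11.39 (median 11.08) in Th1/2 and from 8.84 to 10.09 (median 9.81) in Th2 cells, a difference of 1.23 ± 0.16 (2.34-fold, adjusted p = 2.37e-07). Irf8, an interferon-induced transcription factor, was 0.82 ± 0.19 higher (adjusted p = 0.0055), and Socs3, a feedback inhibitor of cytokine receptors, 0.82 ± 0.15 higher (adjusted p = 0.000292). Irf8 missed the threshold when either Th1/2 experiment or the Th2 arrays of experiment 1 were left out (differences from 0.79 to 0.84, adjusted p from 0.0522 to 0.0804). Jak2, a kinase used by both the IL-12 and the IFN-γ receptor, was lower in all 8 pairs, at 11.98 to 13.27 against 12.62 to 14.08 (-0.69 ± 0.10, adjusted p = 2.14e-06).

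Genes of the MHC class I pathway and the immunoproteasome were higher as a group of small differences. All 21 measured members had a late difference above 0, with a median of 0.36, and 10 were called higher and none lower. With the block 11 were called higher, as were 650 of all 13817 genes. H2-T23, a nonclassical class I heavy chain, lay at 13.63 to 14.22 in Th1/2 and 12.84 to 13.74 in Th2 cells (0.60 ± 0.10, adjusted p = 8.68e-05), higher in all 8 pairs. Tap1, which transports peptides into the endoplasmic reticulum, was 0.68 ± 0.15 higher (adjusted p = 0.00167), and Tapbpl, a tapasin-related peptide editor, 0.61 ± 0.10 higher. Psmb9 (0.86 ± 0.22) and Psmb10 (0.46 ± 0.09), catalytic subunits of the immunoproteasome, and Psme1 (0.30 ± 0.07), a subunit of its activator, were higher too. B2m, the light chain, lay at 15.12 to 15.59 against 15.15 to 15.71 and was not called (0.06 ± 0.06, adjusted p = 0.8). The list had 5 to 8 calls with 1 experiment of 1 side left out, and among others Psmb9 was not called without the Th1/2 arrays of experiment 1 (0.50, adjusted p = 0.395). Class I heavy chain probes can share signal between loci.

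Type I interferon genes, which share ISRE motifs with the GBP genes, gave no call. All 28 measured members had a late difference above 0 (median 0.23), 7 were higher in all 8 pairs, and 1 had an unadjusted p under 0.05 in limma. With the block 2 were called, Bst2 and Isg15. Bst2, which tethers budding virus, ranged from 8.84 to 10.60 in Th1/2 and from 8.30 to 9.19 in Th2 cells (1.03 ± 0.35, adjusted p = 0.0971; 0.00334 with the block), and Isg15, a ubiquitin-like modifier, from 8.70 to 11.83 and from 8.00 to 10.37 (1.27 ± 0.68, adjusted p = 0.465; 0.0119 with the block). Bst2 was also called when only the arrays compared were fitted (adjusted p = 0.0258).

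Gata3, Il4, Il5 and Il13 were not called different over the late window. Gata3, the master transcription factor of Th2 cells, lay between 12.32 and 13.29 (median 12.70) in Th1/2 and between 12.67 and 13.36 (median 13.01) in Th2 cells, while the Th1 arrays ran from 9.42 to 10.27. Its difference of -0.29 ± 0.10 had an adjusted p of 0.127 (0.0255 with the block). Gata3 was called lower when the Th2 side of experiment 1 (-0.46, adjusted p = 0.0196) or the Th1/2 side of experiment 2 (-0.43, adjusted p = 0.0376) was left out. Il4 ranged from 10.98 to 14.28 and from 11.26 to 13.85 (0.39 ± 0.38, adjusted p = 0.813), Il5 differed by 0.27 ± 0.09 (adjusted p = 0.103; 0.0112 with the block) and Il13 by -0.02 ± 0.09 (adjusted p = 0.975). Il5 was called higher without the Th2 arrays of experiment 2 (0.43, adjusted p = 0.00692) and over 73 to 120 h (0.40, adjusted p = 0.0214). The 8 Th1/2 arrays overlapped the Th2 arrays for each of these genes, and for Gata3 and Il4 no Th1/2 array fell into the Th1 range. Of 10 measured Th2 cytokine genes only Il21 was called, and it was higher in Th1/2 cells. The block added Il5 and, as a lower gene, Il3 (-0.50, adjusted p = 0.00196).

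Il21, a cytokine of follicular helper and other effector T cells, lay at 7.41 to 8.64 (median 8.20) in Th1/2 and 6.49 to 7.20 (median 6.69) in Th2 cells, without overlap (1.35 ± 0.19, 2.55-fold, adjusted p = 2.47e-06). Its Th2 median lay below the filter of 6.77, so the fold is not exact. Maf, a transcription factor that activates Il4, was the only one of 12 measured Th2 transcription factors called higher (0.47 ± 0.05, adjusted p = 8.11e-10), and it stayed at 6.23 to 6.45 in Th2 cells, below the expression filter of 6.77. Pparg, a nuclear receptor that Th2 cells use, was called lower (-0.60 ± 0.17, adjusted p = 0.0313). Leaving out the Th1/2 arrays of experiment 2 gave -0.17 (adjusted p = 0.785), and leaving out the Th2 side of experiment 1 gave -0.10 (adjusted p = 0.917). Of 9 measured genes of the Th2 receptor list, 2 were called lower, namely Ccr8, a chemokine receptor of Th2 and regulatory T cells (-0.76 ± 0.17, adjusted p = 0.00286), and Il17rb, a chain of the IL-25 receptor (-0.26 ± 0.07, adjusted p = 0.00973). Ccr8 lay at 9.19 to 11.38 against 10.08 to 11.65, and its call was lost without the Th1/2 arrays of experiment 1 (-0.27, adjusted p = 0.542) or the Th2 arrays of experiment 2 (-0.49, adjusted p = 0.175). That of Il17rb was lost without the Th1/2 or the Th2 arrays of experiment 2 (adjusted p = 0.173 and 0.0718). With the block, 3 members of this list were called higher, as were 650 of all 13817 genes. They were Il2ra (0.43, adjusted p = 4.21e-05), Il2rb (0.32, adjusted p = 0.0258) and Cysltr1 (0.25, adjusted p = 0.0197). Il2ra and Il2rb encode chains of the IL-2 receptor and are not particular to Th2 cells.

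The genes that IL-4 is known to induce were mostly not called, with 2 of 13 lower. Tnfsf13b, which encodes the B-cell survival factor BAFF, ranged from 6.67 to 8.92 (median 7.64) in Th1/2 and from 6.71 to 10.10 (median 9.58) in Th2 cells, lower in all 8 pairs (-1.31 ± 0.10, 2.49-fold, adjusted p = 2.21e-13). The difference was -0.15 at 48 h and -2.52 at 73 h. Socs2, a feedback inhibitor, was called lower (-0.39 ± 0.09, adjusted p = 0.0037), but not without the Th1/2 arrays of experiment 2 (adjusted p = 0.0514) or the Th2 arrays of experiment 1 (0.0556). With the block 4 were lower, with Myo6 and Bcl6 added, and Prnp was higher.

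The largest decrease that recurred in all pairs was that of Ddc. Ddc, the decarboxylase that makes dopamine and serotonin, lay at 7.57 to 8.24 (median 7.77) in Th1/2 and 9.18 to 10.17 (median 9.92) in Th2 cells, and Th1 cells lay at 6.79 to 7.77. The groups were separate on every array, with a difference of -1.95 ± 0.15 (3.87-fold lower, adjusted p = 2.92e-13). Trat1, an adaptor bound to the T-cell receptor, ranged from 9.31 to 12.19 against 11.82 to 13.27 (-1.81 ± 0.15, 3.51-fold lower, adjusted p = 2.47e-12). Tespa1, a protein of T-cell receptor signalling in thymocytes, ranged from 7.63 to 9.29 against 9.39 to 10.88 without overlap (-1.63 ± 0.15, adjusted p = 1.06e-10). Pik3cg, the catalytic subunit of PI3Kγ, was 2.54-fold lower at 9.83 to 11.05 against 10.73 to 12.59 (-1.35 ± 0.13, adjusted p = 1.01e-10).

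Further large decreases were those of Nrn1, Ntrk3, Nav1, Nrp1 and Cpe. Nrn1, the growth factor neuritin, lay at 9.08 to 11.13 in Th1/2, 9.96 to 12.63 in Th2 and 11.66 to 13.70 in Th1 cells (-1.60 ± 0.17, adjusted p = 4e-09). Ntrk3, the neurotrophin receptor TrkC, differed by -1.47 ± 0.15 (adjusted p = 8.09e-10), and Nav1, neuron navigator 1, by -1.44 ± 0.09 (adjusted p = 1.76e-15), with its 4 probes at -1.44, -1.53, -0.72 and -0.08. Nrp1, a semaphorin coreceptor also found on regulatory T cells, ranged from 7.39 to 7.69 against 7.88 to 10.73 (-1.38 ± 0.24, adjusted p = 8.05e-05). Nrp1 varied widely among Th2 arrays and was not called without the Th2 arrays of experiment 1 (-0.70, adjusted p = 0.0881). Cpe, the carboxypeptidase that trims prohormones, differed by -1.21 ± 0.07 (adjusted p = 2.21e-16).

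The remaining large decreases were in Pdlim4, an actin-associated PDZ and LIM domain protein (7.91 to 9.79 against 10.03 to 10.66, -1.53 ± 0.13), Lgals7, galectin-7 (-1.45 ± 0.11), St6gal1, a sialyltransferase (-1.19 ± 0.16), Nipal1 (-1.14 ± 0.10) and Cd44. Pdlim4 rested on its brightest probe, since the other gave -0.19. Cd44, the hyaluronan receptor that marks activated T cells, ranged from 9.55 to 11.16 in Th1/2 and from 10.78 to 11.73 in Th2 cells (-1.14 ± 0.09, 2.20-fold lower, adjusted p = 6.92e-13). Its 6 probes gave -1.14, -1.03, -0.46, -0.27, -0.04 and 0.02, and their mean differed by -0.49 (adjusted p = 2.39e-10), so the size depends on the probe. Adgre1, the macrophage antigen F4/80, rose with time in both groups, to 9.62 and 10.27 in Th1/2 and 10.55 and 10.91 in Th2 cells at 120 h, and was lower in Th1/2 cells in all 8 pairs (-0.88 ± 0.09, adjusted p = 2.48e-09), while Lyz2, Cd14, Csf1r, Fcgr3 and Tyrobp were not called.

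Of 8 SOCS genes, Socs3 was higher and Socs2 lower, and none of 5 STAT genes was called (1 at an unadjusted p under 0.05). Of 11 measured genes of the chemokine receptor list, Cxcr3 and Cxcr2 were higher (with the block also Cxcr5) and Ccr8 lower. Cxcr1, which is outside this list, was higher as well (1.86, as given above). Slamf7 (1.13 ± 0.11, adjusted p = 9.21e-11), a receptor of cytotoxic lymphocytes, and Klrd1 (0.40 ± 0.09, adjusted p = 0.00255), which encodes CD94, were the 2 of 9 killer receptors called, both higher, and Klrd1 was not called without the Th2 arrays of experiment 1 (adjusted p = 0.0545). Slamf7 lay at 7.56 to 9.01 against 6.67 to 7.72. Among 18 checkpoint and costimulatory genes, Cd27, a TNF receptor of T cells (0.60 ± 0.08, adjusted p = 2.11e-07), Lag3, an inhibitory receptor (0.72 ± 0.18, adjusted p = 0.0108), and Cd6 (0.23 ± 0.07, adjusted p = 0.0368) were higher, and Nt5e, the ectoenzyme CD73, was lower (-0.62 ± 0.14, adjusted p = 0.00482). With the block 4 were higher and 5 lower, where 650 and 752 of all 13817 genes were. Tigit was added to the higher and Ctla4 (-0.69, adjusted p = 6.69e-05), Btla, Slamf1 and Slamf6 to the lower genes. The calls of Lag3 and Cd6 were lost whichever experiment of either group was left out (lowest adjusted p 0.0503 and 0.0747), and that of Nt5e without the Th1/2 arrays of experiment 2 (-0.55, adjusted p = 0.11) or the Th2 arrays of experiment 1 (-0.47, adjusted p = 0.213).

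Of 12 measured genes of Th17, regulatory and follicular helper cells, Il21 was higher and Nrp1 lower (with the block also Cxcr5 and Bcl6, respectively), and of 13 naive and memory genes, Klf2 and Cd44 were lower (with the block Il7r was higher). Klf2, which maintains quiescence and homing receptors, ranged from 8.71 to 11.18 in Th1/2 and from 9.38 to 12.54 in Th2 cells (-1.05 ± 0.16, 2.06-fold lower, adjusted p = 6.45e-06). Growth programmes gave almost no calls in limma. None of 21 DNA replication genes (0 at an unadjusted p under 0.05, 0 with the block), 14 mitosis genes (1 and 0) or 15 glycolysis genes (0 and 2) was called, nor any of 14 other cytokine receptors (5 and 3). Of 15 cholesterol synthesis genes, 8 were lower in all 8 pairs and the list's median was -0.19. Only Sqle, the squalene epoxidase, was called (-0.35 ± 0.08, adjusted p = 0.00162, but -0.29 and 0.0699 without the Th1/2 arrays of experiment 1). With the block 5 were called lower, as were 752 of all 13817 genes.

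**Figure D3:**
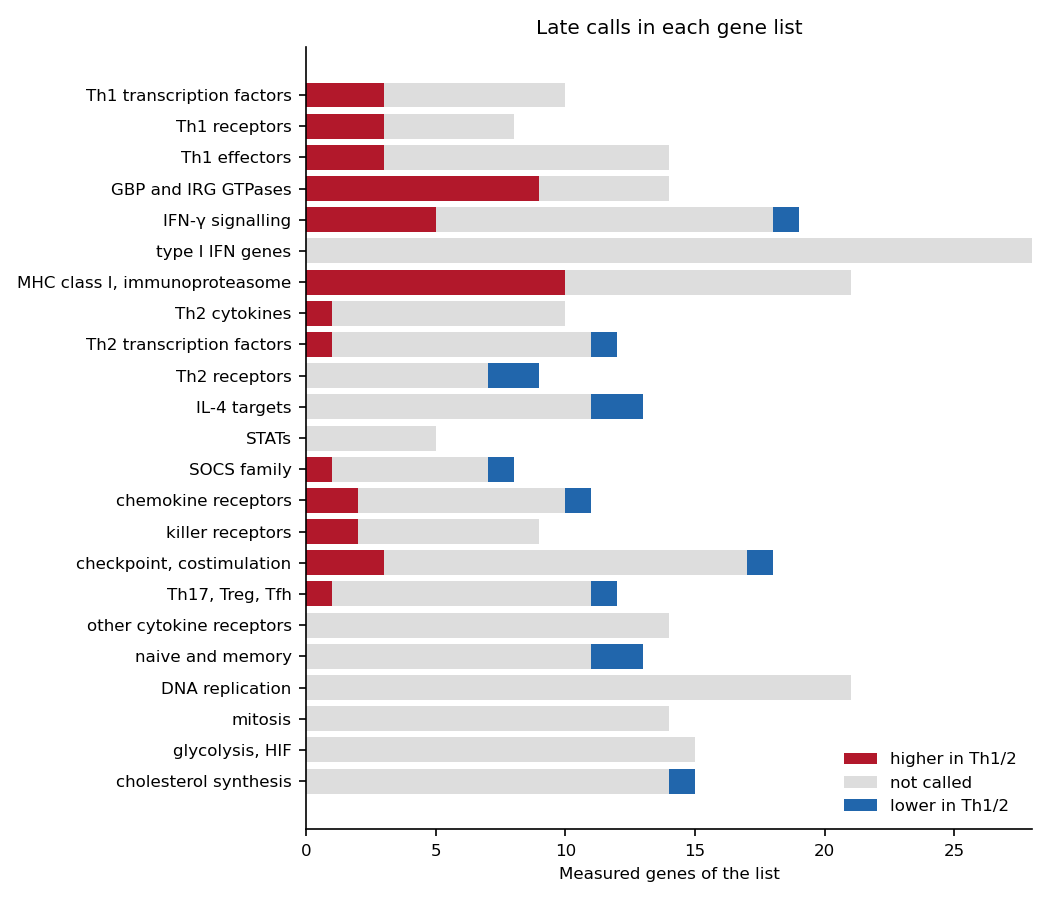
Number of measured genes of each list (horizontal axis) that were called higher (red), not called (grey) or called lower (blue) in late Th1/2 against Th2 cells at an adjusted p below 0.05. The GBP and IRG list (9 of 14) and the MHC class I list (10 of 21) hold the most higher calls, and no list has more than 2 lower calls; over all genes 1.79% were higher and 2.33% lower.

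Followed through time, few differences were established at 48 h. With at least 2-fold and an adjusted p below 0.05, 7 genes were higher (0.0507%) and 7 lower (0.0507%) at 48 h, 35 (0.253%) and 34 (0.246%) at 73 h, 32 (0.232%) and 32 (0.232%) at 96 h, and 33 (0.239%) and 30 (0.217%) at 120 h. Under the block 39 genes were called at 48 h. Leaving out the Th1/2 arrays of experiment 1 gave 8 calls at 48 h, and leaving out the Th1/2 arrays of experiment 2 gave 38 calls at 96 h. For the 570 genes called over the late window, the median difference in their own direction was 0.26 (48 h), 0.50 (73 h), 0.50 (96 h) and 0.47 (120 h). Only 5 genes were called at 2-fold at all 4 late times, namely Tbx21, Il12rb2 and Slamf7, which were higher, and Ddc and Pik3cg, which were lower.

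At 24 and 35 h, 39 genes were already higher (0.282%) and 27 lower (0.195%) in Th1/2 cells, on 4 arrays a side that the late window does not use. Of these 66 genes, 44 (66.7%) were also called late with the same sign, 7.72% of the late genes, and none was called with the opposite sign. Those called early included 12 of the 33 and 6 of the 22 genes with late differences of at least 2-fold. Of the 14 measured GBP and IRG genes, 8 were called higher at these hours, with a median of 1.19 over the list. Igtp was 1.67 higher at 24 to 35 h against 0.88 late, Irgm2 1.61 against 0.76, Tgtp1 1.34 against 0.53 and Irf8 2.14 against 0.82, whereas Gbp2 was 1.32 higher early and 1.495 late. Tbx21 differed by 2.84 (adjusted p = 3.47e-09) and Il12rb2 by 1.17 (adjusted p = 4.31e-05) at these hours. Plac8 (1.53, adjusted p = 0.17; 0.0426 with the block) and Ly6c1 (1.14, adjusted p = 0.926) were not called there, nor were Ffar2 (0.09), Cxcr3 (0.12) and Cxcr1 (0.22). The early count was 340 with the block, 39 without the Th1/2 arrays of experiment 1 at these hours, and 31 and 36 without the Th2 arrays of experiment 1 and of experiment 2.

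Within the late window, the signed difference was called more positive at 120 h than at 48 h for 9 genes (0.0651%) and more negative for 17 (0.123%). Cxcr3 went from 0.19 at 48 h through 2.02 and 2.27 to 2.82 at 120 h, a change of 2.63 (adjusted p = 2.4e-06). Ffar2 went from 0.77 to 3.33 (adjusted p = 0.000215), Ctsw from 0.74 to 2.67 (adjusted p = 0.00591) and Maf from -0.03 to 0.84 (adjusted p = 0.000187). Xdh, xanthine dehydrogenase, and Ctla2b, a cysteine protease inhibitor, widened by 1.31 and 1.18 (adjusted p = 0.0449 and 0.0368), and both calls were lost when any experiment of either group was left out. Fcrls, an Fc receptor-like protein, went from -0.11 to 1.68 (adjusted p = 0.00281).

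Downward changes were led by genes whose level climbed more steeply in Th2 than in Th1/2 cells. Sln, which encodes the calcium pump inhibitor sarcolipin, differed by 0.01 at 48 h and by -2.42 at 120 h (adjusted p = 0.000187), as Th2 arrays reached 11.53 and Th1/2 arrays 9.13. Nav1 went from -0.14 to -2.35 (adjusted p = 8.16e-07), Cpe from -0.13 to -2.06 (adjusted p = 7.89e-08) and Trgv4, a T-cell receptor gamma variable segment, from 0.08 to -1.72 (adjusted p = 8.36e-07). Cuzd1 reached -1.51 at 120 h and Snupn, the snurportin import receptor, -0.85. Emilin2, an extracellular matrix protein, crossed from 1.27 at 48 h to -0.23 at 120 h (adjusted p = 0.00878), and Tgm1, a transglutaminase, from 0.91 to -0.38 (adjusted p = 0.0288). The number of genes with a called change was 26; it was 98 with the block, and 15 and 17 without the Th1/2 arrays of experiment 1 and of experiment 2. The cited changes of Ctsw, Maf, Cuzd1, Emilin2, Tgm1 and Snupn each lost their call with at least 1 experiment of 1 group left out. Fitted on only the arrays compared, 5 changes were called. The changes of Cxcr3 (adjusted p = 0.0984), Ffar2 (0.299), Fcrls (1) and Sln (0.867) were not among them, nor were those of Ctsw, Maf, Xdh, Ctla2b, Cuzd1, Emilin2, Tgm1 and Snupn.

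**Figure D4:**
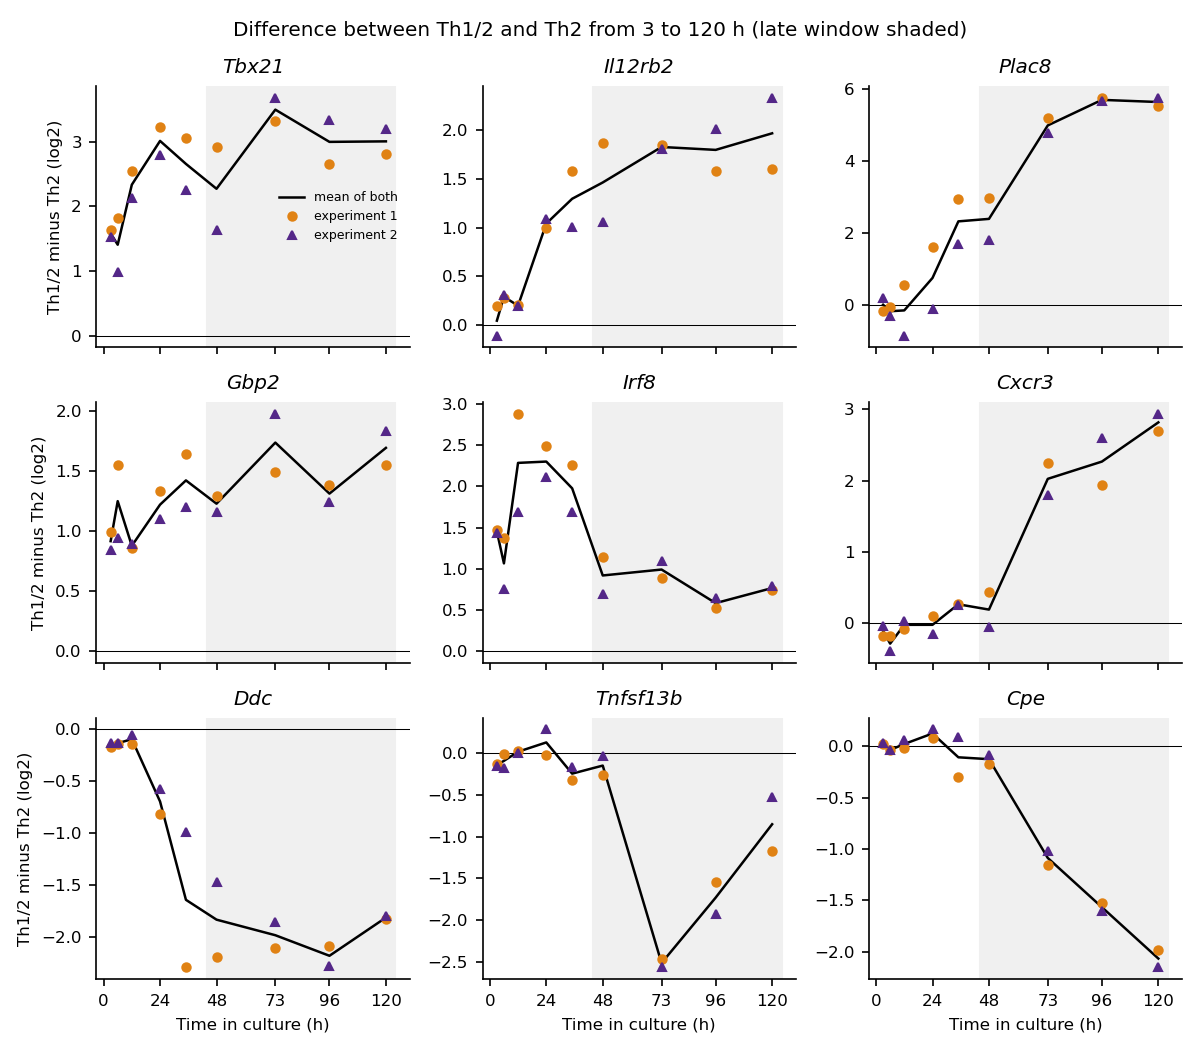
Difference Th1/2 minus Th2 in log2 intensity from 3 to 120 h for 9 genes; circles are experiment 1, triangles experiment 2, lines their mean, and the late window is shaded. Tbx21, Il12rb2, Gbp2 and Irf8 separated before 48 h, Plac8 and Cxcr3 kept widening up to 96 h or later, and Tnfsf13b and Cpe went from -0.15 and -0.13 at 48 h to their largest negative differences after 48 h.

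To show how the late differences compare with those in the absence of IL-4, the matching comparison without IL-4, Th1 minus Th0, was set beside them on arrays of its own. The pairs of conditions are not exact copies, since the Th1 and Th0 cultures held an antibody to IL-4. In late Th1 against Th0 cells 406 genes were higher (2.94%) and 395 lower (2.86%). Of these 801 genes, 214 (26.7%) were also called in Th1/2 against Th2 cells with the same sign, which were 37.5% of the 570, and 12 were called with the opposite sign. The interaction, the late difference with IL-4 minus that without IL-4, was called for 268 genes, of which 106 were more positive (0.767%) and 162 more negative (1.17%) with IL-4. Of these 268, 137 were not called in Th1/2 against Th2 cells. The interaction count was 996 with the block (531 more positive, 465 more negative). It was 448 without the late Th0 arrays of experiment 1 (235 more positive, 213 more negative). The excess of more negative interactions was therefore not seen in every fit. The Th1 minus Th0 count was 1871 with the block, 533 without the Th1 arrays of experiment 1 and 1227 without the Th0 arrays of experiment 1. Without the widest-apart arrays, Th0 of experiment 2 at 96 h and Th1/2 of experiment 1 at 12 h, 614 late genes, 244 interactions and 655 Th1 minus Th0 differences were called.

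Several Th1 genes had no called interaction. Tbx21 differed by 2.94 with and 2.21 without IL-4 (interaction 0.74, adjusted p = 0.209; called with the block, 0.0233), Il12rb2 by 1.76 and 1.82 (interaction -0.06, adjusted p = 0.966) and Slamf7 by 1.13 and 1.24 (interaction -0.11, adjusted p = 0.898). An interaction that misses the threshold does not show equal differences. Of the 33 genes at least 2-fold higher in Th1/2 cells, 23 were also called higher in Th1 than in Th0 cells (2.94% of all genes).

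Another set of genes, among them Ifng, had a less positive difference in the presence of IL-4. Not all are Th1 genes, since Batf3 and Myo1f were lower in late Th1 than in Th2 cells (-1.16 and -1.49). Ifng was 4.03 higher in Th1 than in Th0 cells and 1.14 higher in Th1/2 than in Th2 cells (interaction -2.88, adjusted p = 0.000393). Cxcr1 was 3.63 higher without and 1.86 with IL-4 (interaction -1.77, adjusted p = 4.45e-13). Hopx (1.40 and 0.18, interaction -1.22, adjusted p = 3.78e-09), Nkg7 (1.73 and 0.58, interaction -1.14, adjusted p = 9e-05) and Klrd1 (0.96 and 0.40) had the same order, as had Il18r1 (1.36 and 0.61, interaction adjusted p = 0.0405). The Th2 means of Ifng (6.80), Il18r1 (6.88), Hopx (6.98) and Nkg7 (7.02) lay near the filter of 6.77, and that of Klrd1 (6.49) below it. The Th1/2 means of Klrd1 (6.89) and Hopx (7.16) were low too. Without IL-4, the Th0 means of Hopx (7.05) and Cxcr1 (6.62) were also low. Whether such low levels narrowed any of these differences was not tested. Batf3, a transcription factor of the AP-1 family, was 1.57 higher in Th1 than in Th0 cells and -0.26 in Th1/2 minus Th2 cells (interaction -1.82, adjusted p = 0.0192), a call that was lost in 4 of 8 leave-outs of 1 group's experiment, at the lowest without the Th1 arrays of experiment 1 (-0.82, adjusted p = 0.468). Ltb4r1, the leukotriene B4 receptor (1.63 and 0.20, the latter called with the block, adjusted p = 0.041), and Myo1f, an unconventional myosin (1.25 and -0.44), had overlapping ranges in Th1/2 and Th2 cells, with medians of 9.61 and 9.06 against 7.77 in Th0 cells for Ltb4r1, and 10.10 and 10.63 against 7.11 for Myo1f.

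GBP and IRG genes showed the reverse. Their median difference was 0.73 with IL-4 and -0.02 without it, and 8 of the 14 measured had a more positive difference with IL-4, where 0.767% of all genes did. Gbp7 was 1.39 higher in Th1/2 than in Th2 cells and -0.15 in Th1 minus Th0 cells (interaction 1.53, adjusted p = 2.13e-05), Gbp2 1.495 and 0.24 (interaction 1.26, adjusted p = 0.000118) and Nlrc5 1.23 and -0.22 (interaction 1.45, adjusted p = 3.18e-05). The levels behind these differences are as follows. Gbp7 ran from 9.80 to 11.96 in Th0 cells, whose IFN-γ and IL-12 were blocked, and from 9.45 to 11.33 in Th1 cells, whereas Th2 cells, blocked in the same way, lay at 7.85 to 8.44 and Th1/2 cells between them. Gbp2 lay at 12.22 to 13.38 in Th0, 12.45 to 13.69 in Th1, 11.83 to 12.38 in Th1/2 and 9.85 to 11.09 in Th2 cells. Th2 cells were again lowest, and the Th1/2 mean (12.11) was below those of Th0 (12.86) and Th1 cells (13.09). Th0 and Th1 levels overlapped for both genes. The Th1/2 range reached into the Th0 range for both, and for Gbp7 also into the Th1 range. Gbp5 was the exception among the bright members, with 1.27 and 0.88 (interaction 0.39, adjusted p = 0.64).

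For Plac8 the difference was 4.67 with and 2.91 without IL-4 (interaction 1.76, adjusted p = 0.0283), but the call was lost in 5 of 8 leave-outs of 1 group's experiment, and the interaction was 0.70 (adjusted p = 0.264) without the Th0 arrays of experiment 1. Calhm6 had a positive difference with IL-4 and a negative one without it (0.59 and -1.16, interaction 1.75, adjusted p = 1.06e-06). Gm4951 differed by 1.99 with and -0.21 without IL-4 (interaction 2.20, adjusted p = 1.05e-05). Its difference without IL-4 was not called (adjusted p = 0.767) and was 0.30 in experiment 1 and -0.73 in experiment 2. With its probes averaged, the interaction of Gm4951 was 1.18. The late call of Calhm6 was lost when either Th1/2 experiment or the Th2 side of experiment 1 was left out (adjusted p from 0.0677 to 0.595). Igfbp7, an insulin-like growth factor binding protein, Gucy1a1, a subunit of soluble guanylate cyclase, and Apobec1, an RNA-editing cytidine deaminase, reached the top of this interaction by another way, since they were bright in Th0 cells (medians 10.77, 9.60 and 10.26), lower in Th1 cells (7.94, 7.38 and 8.12) and low in both Th1/2 (6.78, 7.15 and 7.34) and Th2 cells (7.25, 7.17 and 7.57). With the block, Igfbp7 and Apobec1 were called lower in Th1/2 than in Th2 cells (adjusted p = 0.0323 and 0.0216). Of the late genes at least 2-fold lower in Th1/2 cells, 12 of 22 had a more negative difference with IL-4 (1.17% of all genes). The interaction contains the late difference that picked these genes, so the selection itself favours a negative value. Of the same 22 genes, 14 were also lower in Th1 than in Th0 cells (2.86% of all genes), on arrays not used to pick them. Ddc was -1.95 with and -0.62 without IL-4 (interaction -1.33, adjusted p = 5.23e-05), and Tnfsf13b -1.31 and -0.18 (interaction -1.13, adjusted p = 3.74e-07). Sln (-1.45 and -0.01), Emp1, an epithelial membrane protein (-0.93 and 0.97), and Gpr183, the oxysterol receptor EBI2 (-0.86 and 0.69), were lower in Th1/2 than in Th2 cells and not called lower in Th1 than in Th0 cells (interactions -1.44, -1.90 and -1.55, adjusted p = 1.18e-06, 0.000337 and 9.65e-05). For Sln the Th1 and Th0 means, 6.35 and 6.36, were both below the filter, so a fall could not be seen there. The late call of Emp1 was lost when the Th1/2 side of experiment 2 (-0.55) or the Th2 side of experiment 1 (-0.56) was left out, and that of Gpr183 when the Th2 side of experiment 2 was (-0.34).

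**Figure D5:**
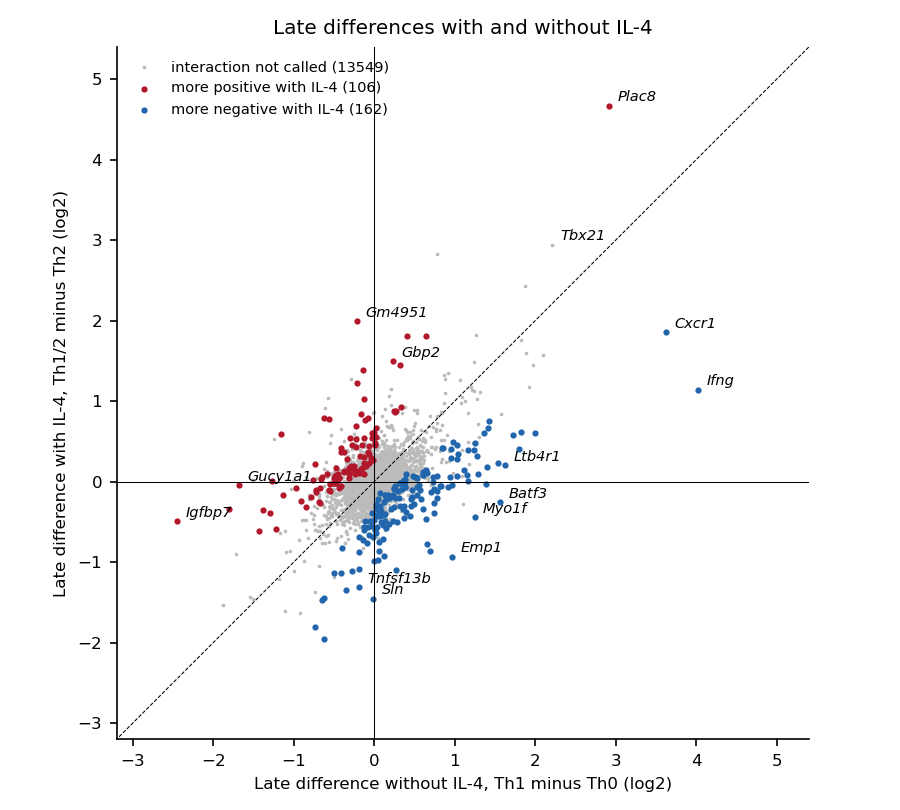
Late difference without IL-4 (Th1 minus Th0, horizontal axis) and with IL-4 (Th1/2 minus Th2, vertical axis) in log2 intensity for 13817 genes; the dashed line marks equal differences. Red points are the 106 genes with a difference more positive with IL-4 and blue points the 162 with one more negative; Tbx21 and Plac8 are high on both axes, Ifng and Cxcr1 lie far to the right, and Gbp2 and Gm4951 lie near 0 on the horizontal axis.

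Late Th1/2 cells were set against Th1 cells by their values alone, since Th1/2 minus Th1 and Th1/2 minus Th2 share the Th1/2 arrays. Median levels in Th1/2, Th2 and Th1 cells were 10.03, 6.91 and 10.47 for Tbx21, 12.70, 13.01 and 9.78 for Gata3, 13.85, 13.32 and 9.62 for Il4, and 7.32, 6.58 and 11.55 for Ifng. Th1/2 cells held Tbx21 near the Th1 level and Gata3 and Il4 near the Th2 level, with Ifng closer to Th2 than to Th1 cells. For Nrn1, Tespa1, Nipal1 and Nrp1 the Th1/2 median was below both, at 10.01 against 12.01 and 12.55, 8.81 against 10.42 and 10.24, 6.85 against 8.30 and 7.82, and 7.50 against 8.60 and 8.80. Il21, with 8.20 against 6.69 and 7.52, Nuak2, with 8.72 against 7.22 and 8.34, Ffar2, with 9.47 against 6.68 and 8.77, and Gja1, with 10.42 against 8.99 and 8.39, had their highest median in Th1/2 cells. The Th1/2 and Th1 ranges did not overlap for Nrn1, Nrp1, Gata3 and Il4 and overlapped for the other genes of this comparison.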

How the data were processed

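RNA of CD4+ T-cell cultures was measured on 74 Illumina Mouse Sentrix-6 arrays (37 conditions of 2 arrays). The authors deposited 1 normalized linear intensity per probe and array; their methods name background correction and quantile normalization, with software not given in the sources used here. Array medians lay between 106.7 and 111.1, and no detection p-values were used, so low values limit precision. Intensities were turned into log2 values. Of 45135 probes, 34773 matched 1 gene symbol, 18 several and 10344 none in the platform annotation. Probes above the overall median (6.77, log2) in at least 1 condition were kept, and 13817 genes were each represented by their brightest probe (5863 had several).

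Differences were tested with limma 3.58.1 (lmFit, eBayes; R 4.3.3), with 1 mean per condition over all arrays, 37 residual degrees of freedom and Benjamini-Hochberg adjustment over all genes; called means an adjusted p below 0.05. Errors in the text are standard errors (n = 8 arrays a side unless stated). Replicate numbers in the labels mark 2 independent experiments, and deviations of same-numbered Th1/2 and Th2 arrays from their means correlated across genes at 0.424, 0.595, 0.577 and 0.687 at 48, 73, 96 and 120 h. The numbers were therefore taken to pair the arrays, and values with the experiment within each time point as a block are given where they change a late call of a named gene or the count of a list by over 1.5 times. The unblocked fit treats the 8 arrays of a side as independent.

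Named genes were the 15 largest late differences in each direction with the same sign in all pairs, the 8 largest changes from 48 to 120 h and the 8 largest interactions in each direction, and members of the gene lists. The groups, gene lists and this rule were chosen with earlier results of these data known. Promoters came from RefSeq (GRCm38.p6). The fit was tested on simulated data, and alternatives covered normalization, filter, probe choice, variance model, arrays fitted, block, fold criterion and left-out arrays.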

Additional observations from a re-analysis of the deposited data

Results flagged for a closer look

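Of 67 results, 51 were singled out because the late difference of a named gene with IL-4 (Th1/2 minus Th2) differed from that without IL-4 (Th1 minus Th0) in the limma interaction test, and 16 because the difference at 120 h differed from that at 48 h. Values below are these differences of differences on the log2 scale, all at an adjusted p below 0.05, and a positive value means a more positive difference with IL-4 or at 120 h.

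Among interferon-inducible genes the interaction was Gbp2 1.26, Gbp2b 1.18, Gbp3 1.12, Gbp7 1.53, Gbp10 1.16, Igtp 0.63, Irgm2 0.87, Ifi47 0.92, Tgtp1 0.75 and Gm4951 2.20. For MHC class I pathway genes it was Nlrc5 1.45, Psmb10 0.74, Psme1 0.43 and H2-T23 0.61. Other genes with a positive value were Plac8 1.76, Nuak2 1.41, Calhm6 1.75, Igfbp7 1.96, Gucy1a1 1.63, Apobec1 1.47, Cd27 0.62, Maf 0.46 and Fcrls 0.61. Negative values among genes of Th1 and cytotoxic cells were Ifng -2.88, Cxcr1 -1.77, Cxcr2 -0.42, Hopx -1.22, Nkg7 -1.14, Klrd1 -0.55 and Il18r1 -0.75. Among genes lower in Th1/2 than in Th2 cells they were Ddc -1.33, Trat1 -1.08, Lgals7 -0.82, Ntrk3 -0.83, Nipal1 -0.64, Pik3cg -0.999, Tnfsf13b -1.13, Cd44 -0.72, Jak2 -0.50, Adgre1 -0.69, Cuzd1 -0.66, Sln -1.44, Emp1 -1.90, Gpr183 -1.55 and Myo1f -1.69. The last negative ones were Emilin2 -0.77, Il24 -1.40, Ltb4r1 -1.43, Id2 -0.74, Batf3 -1.82 and Irf4 -1.15. Il24, Id2, Batf3 and Irf4 were lower in late Th1 than in Th2 cells (-3.19, -0.50, -1.16 and -0.85).

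From 48 to 120 h the difference moved upwards by Ctla2b 1.18, Ctsw 1.93, Ctu1 0.85, Cxcr3 2.63, Fcrls 1.79, Ffar2 2.57, Maf 0.87 and Xdh 1.31. It moved downwards for Cpe -1.94, Cuzd1 -1.55, Emilin2 -1.49, Nav1 -2.20, Sln -2.43, Snupn -1.18, Tgm1 -1.29 and Trgv4 -1.79. The change of Ctu1 was not called with its probes averaged (0.43, adjusted p = 0.611) or on only the arrays compared (adjusted p = 0.515). It was 0.54 without the Th1/2 arrays of experiment 1 and 0.68 without the Th2 arrays of experiment 2. Groups at single time points held 2 arrays, and no array of a group was tested as an outlier.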

How the results depend on the processing

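With the experiment within each time point as replicate block, the estimates were the same and more genes were called: 1402 late (570 without the block), 39 at 48 h, 98 for the change from 48 to 120 h, 340 at 24 to 35 h, 996 interactions and 1871 for Th1 minus Th0. It included all calls of the late, early, change and interaction tests made without the block. An alternative chosen after seeing the data, the block without the widest-apart arrays (Th1/2 at 12 h, experiment 1, and Th0 at 96 h, experiment 2), gave 1684, 40, 138, 425, 1059 and 1749. Fitting only the arrays compared gave 65 genes at any late time, 5 at 48 h, 41 at 73 h, 37 at 96 h, 5 for the change, 477 for Th1 minus Th0 and 160 interactions. A 1.5-fold criterion gave 167 late genes, 218 at any late time and 25, 116, 119 and 132 at 48, 73, 96 and 120 h.

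Leaving out arrays of 1 experiment and group (or both widest-apart arrays) gave 379 to 614 late genes, 53 to 72 at 2-fold, 78 to 140 at any late time, 8 to 14 at 48 h, 50 to 69 at 73 h, 38 to 75 at 96 h, 44 to 86 at 120 h, 15 to 29 changes, 31 to 82 at 24 to 35 h, 195 to 448 interactions and 533 to 1227 for Th1 minus Th0. The lowest late, 96 h and interaction counts were without Th1/2 experiment 2, and the lowest 48 h and change counts without Th1/2 experiment 1; leaving out arrays at 24 and 35 h, with 31, 36 and 39 as the lowest counts, was chosen after seeing the data.

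Background correction with quantile normalization, median centring, probe averaging, both other filters, the trend and robust variance and an additive experiment block kept every count within 1.5 times. A window of 73 to 120 h was run only for the late count and the late count at 2-fold, and kept both within 1.5 times. Values near the filter level and 2 arrays per time point limit single-time calls.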

Other observations

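Some probes outside the comparisons above had values worth a second look, and these genes were chosen after their values were seen. Mzb1, a gene known from marginal zone B cells and plasma cells, was called higher in late Th1/2 cells (0.89 ± 0.21, adjusted p = 0.00516) although the difference was -0.11 in experiment 1 and 1.88 in experiment 2. Without the Th2 arrays of experiment 2 it was 0.13 (adjusted p = 0.806), without the Th1/2 arrays of experiment 2 it was 0.65 (adjusted p = 0.234), and the cause was not tested.

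Adgre1 and Fcrls, genes known from macrophages and other myeloid cells, were near the filter level of 6.77 in Th0 and Th1 cells on all 16 late arrays (6.20 to 6.83 for Adgre1, 6.24 to 6.55 for Fcrls) and were on average higher on late arrays of the cultures with IL-4. Adgre1 reached 10.27 in Th1/2 and 10.91 in Th2 cells, and Fcrls 9.72 and 9.21. Their late differences between Th1/2 and Th2 cells had opposite signs (-0.88 and 0.61). That of Fcrls was higher in 5 of 8 pairs, stood at -0.11 and -0.02 at 48 and 73 h, and was not called without the Th2 arrays of experiment 1 (0.24, adjusted p = 0.344) or the Th1/2 arrays of experiment 2 (0.36, adjusted p = 0.126).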
